A study of Mus musculus with 2 samples.

Results

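The genes described here encode 5 subunits of the GABA-A receptor, Gabra2, Gabra3, Gabra5, Gabrb1 and Gabrb2, and 2 cation-chloride cotransporters, Slc12a2 and Slc12a5. They were taken by gene identifier from tables that list 43346 genes, so the set is 7 of 43346 genes, with 16 annotated transcripts. RNA came from the whole forebrain of newborn mice, postnatal day 0, strain B6NCrl, and 2 libraries were made, 1 from pup 1 and 1 from pup 3. Both libraries form 1 untreated group, sex was not collected, and both carry the same donor identifier although they are named as different pups. Each library started from 13 pg of RNA longer than 200 nt, the amount of 1 cell-equivalent, so each sampled a mixture of forebrain cells and not a single cell.

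GABA-A receptors are chloride channels built of several subunits around a pore, usually alpha and beta subunits with a gamma or delta subunit. The alpha subunit shapes kinetics, drug sensitivity and location, and beta subunits take part in the GABA binding site and in trafficking. Whether opening the channel excites or inhibits a neuron depends on the chloride gradient, which Slc12a2 (NKCC1) sets by importing chloride and Slc12a5 (KCC2) by extruding it. In rodent forebrain Slc12a5 is known to increase after birth, while GABA is often depolarising in newborn neurons.

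The libraries held 41082811 estimated reads in pup 1 and 29881397 in pup 3, over all listed features. Spike-in RNA took 4.46% of TPM (a level per length that sums alike in every library) in pup 1 and 7.30% in pup 3. Of 21461 nuclear protein-coding genes, 9048 were found at a TPM of 1 or more in pup 1 and 6210 in pup 3, and 46.8% had 0 reads in both. Of the markers fixed for this tissue, neuronal genes were found in both pups for 6 of 7 and telencephalic genes for 4 of 6. Neurod6, a transcription factor of cortical excitatory neurons, had 272 TPM in pup 1 against 456 TPM in pup 3. With a single library a pup, differences between the pups are given as spread within a group, with no test. Intervals and floors below cover counting error only, since amplified reads are not independent molecules.

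Of the 7 genes, 5 were found in pup 1, against 42.2% of protein-coding genes, and 4 in pup 3, against 28.9%. Gabra2, Gabra3, Gabrb2 and Slc12a5 were found in both, which is 57.1% of the set, against 24.7% of protein-coding genes. Gabra5 was found in pup 1 alone, as were 17.4% of protein-coding genes, and no gene of the set was found in pup 3 alone, where 4.22% of protein-coding genes were. Gabrb1 and Slc12a2 had 0 reads in both pups, as 46.8% of protein-coding genes did. Among the 5 genes found, 3 lay over 2-fold higher in pup 1, where 49.1% of genes found in either pup did, 1 lay over 2-fold higher in pup 3, where 22.9% did, and 1 lay within 2-fold, where 28% did. Fold between pups was taken on log2(TPM + 1), which understates the change of low genes. The median of this log2 ratio was 1.70 over the 5 genes and 0.92 over all protein-coding genes found in either pup. In RNA of whole tissue, fewer cells of a type and less RNA per cell cannot be told apart.

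**Figure D1:**
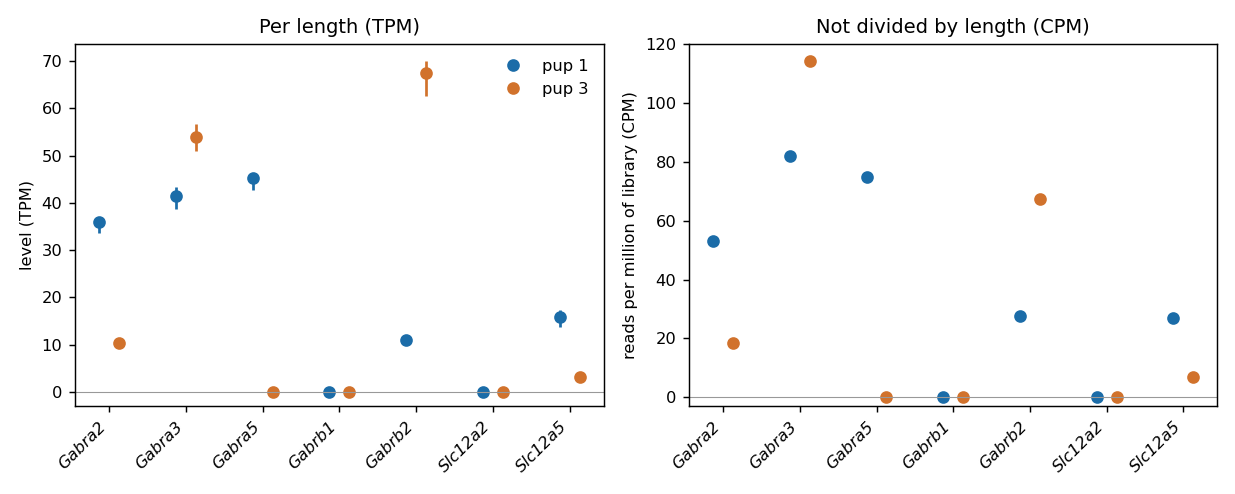
Level of each of the 7 genes in pup 1 and pup 3, as TPM on the left (per length, with the deposited credibility bounds) and as CPM, reads scaled to the library total and not divided by length, on the right. Gabra3 is close in both pups, Gabra5 is at 0 in pup 3, Gabrb2 is higher in pup 3, and Gabrb1 and Slc12a2 are at 0 in both.

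The 5 subunit genes are related copies, so reads could in principle be split between them, and the stretch that encodes the end of the pore-lining helix and the loop after it shows how far they differ. The coding strand is printed for GRCm38, at chr5:70973551-70973625 on the minus strand for Gabra2, chrX:72445310-72445384 on the minus strand for Gabra3, chr7:57413721-57413795 on the minus strand for Gabra5, chr5:72121951-72122025 on the plus strand for Gabrb1 and chr11:42597543-42597617 on the plus strand for Gabrb2. Capitals mark bases that differ from Gabra3.
Gabra2: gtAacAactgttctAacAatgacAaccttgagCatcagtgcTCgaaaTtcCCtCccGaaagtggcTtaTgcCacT
Gabra3: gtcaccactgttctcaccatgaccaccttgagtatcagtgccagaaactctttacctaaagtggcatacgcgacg
Gabra5: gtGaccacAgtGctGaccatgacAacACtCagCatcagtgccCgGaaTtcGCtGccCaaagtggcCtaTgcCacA
Gabrb1: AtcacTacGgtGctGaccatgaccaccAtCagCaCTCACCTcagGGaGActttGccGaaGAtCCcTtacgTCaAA
Gabrb2: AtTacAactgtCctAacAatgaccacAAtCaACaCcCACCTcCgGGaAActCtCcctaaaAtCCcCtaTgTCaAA
Of these 75 bases, 17 differed from Gabra3 in Gabra2 and 20 in Gabra5, an identity of 77.3% and 73.3%. The beta subunits differed at more positions, 30 in Gabrb1 and 33 in Gabrb2, an identity of 60.0% and 56.0%. At 13 of the 25 codons all 5 genes encode the same residue, 8 of them in an unbroken run. Over whole transcripts the longest exact run shared by any of the 10 pairs was 24 bases, between Gabra3 and Gabra5. The effective lengths in the tables correspond to reads of 100 bases, so no error-free read could fall wholly inside a shared run.

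Gabra3, which encodes the alpha3 subunit, common in embryonic and newborn cortex, was the alpha subunit found at a like level in both pups. It had 41.4 TPM in pup 1 (credibility bounds 38.7 to 43.3, 3374 reads) and 53.9 TPM in pup 3 (50.9 to 56.6, 3417 reads). The mean was 47.6 ± 8.85 TPM (SD, n = 2), and the log2 ratio of pup 1 over pup 3 was -0.37. The gene (ENSMUSG00000031343.9) spans chrX:72432681-72656848 (mm10) on the minus strand. The 4 annotated genes that overlap it had 0 reads in both pups and share no exon bases with it.

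Gabra2, which encodes the alpha2 subunit of synapses on forebrain neurons, was higher in pup 1. It had 35.9 TPM in pup 1 (33.6 to 36.6, 2182 reads) and 10.3 TPM in pup 3 (9.27 to 11, 548 reads). The log2 ratio was 1.70, and the mean was 23.1 ± 18.1 TPM (SD, n = 2). In rank, it lay at the 58.5th percentile of found protein-coding genes in pup 1 and at the 17.3rd in pup 3. The gene (ENSMUSG00000000560.5) spans chr5:70957597-71095849 on the minus strand. Its single deposited transcript is 2392 bases long, and the longest in the later GENCODE M21 annotation has 5852, so reads from the added part could not be counted. M21 types the deposited transcript as a target of nonsense-mediated decay.

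Gabra5 encodes the alpha5 subunit, known for extrasynaptic receptors of the hippocampus and for high levels in developing forebrain. It had the highest TPM of the 7 genes in pup 1 and no read in pup 3. The level was 45.3 TPM in pup 1 (42.8 to 46, 3071 reads) and 0 TPM in pup 3 (0 reads, upper credibility bound 0.0492 TPM). With 3 reads, worth 0.0507 TPM, as the floor in pup 3, the level was at least 894-fold higher in pup 1. The gene (ENSMUSG00000055078.6) spans chr7:57407672-57510059 on the minus strand and shares 148 exon bases with Gm9962. Of 3410 protein-coding genes within 2-fold of its level in pup 1, 958 also had 0 reads in pup 3, a share of 28.1%. A gene at this level in 1 library and at 0 in the other was therefore common in this pair of libraries.

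The same count can be set beside the genes that were found in both. Of genes within 2-fold of Gabra3 in pup 1, 29.5% had 0 reads in pup 3, and of those near Gabra2, 32.5% did. In the other direction the shares were 5.50% for genes near Gabra3 in pup 3 and 9.87% for genes near Gabra2. At these levels 0 reads in pup 3 was more frequent than 0 reads in pup 1.

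Of the summed TPM of the 3 alpha genes, Gabra2 made up 29.3%, Gabra3 33.8% and Gabra5 37.0% in pup 1, from 122.5 TPM and 8627 reads. In pup 3 the shares were 16.1% for Gabra2, 83.9% for Gabra3 and 0% for Gabra5, from 64.2 TPM and 3965 reads, and the count of 0 allows up to 0.0789%. The alpha mix was near even in pup 1 and mostly Gabra3 in pup 3. Against all 19 GABA-A subunit genes, whose TPM summed to 305 in pup 1 and 372 in pup 3, the 5 subunits described here held 43.8% in pup 1 and 35.4% in pup 3. Their summed level was close in both, 133.5 TPM in pup 1 and 131.7 TPM in pup 3, although the genes that made it up differed.

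**Figure D2:**
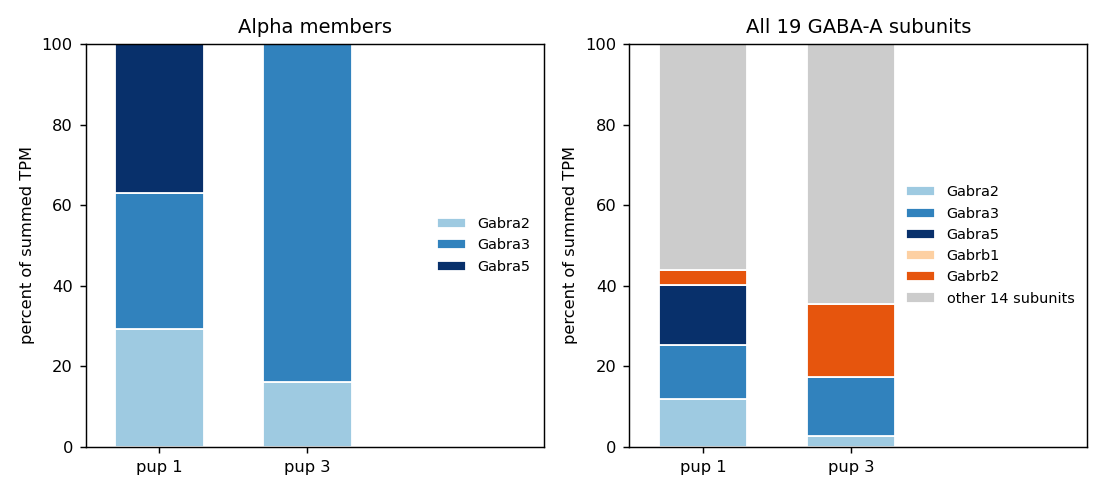
Share of each gene in the summed TPM of the alpha genes (Gabra2, Gabra3, Gabra5) on the left and of all 19 GABA-A subunit genes on the right. Pup 1 is left of pup 3, and the other 14 subunit genes are drawn together in grey. Gabra3 takes 33.8% of the alpha total in pup 1 and 83.9% in pup 3. Gabrb2 takes 3.61% of the total of all 19 genes in pup 1 and 18.2% in pup 3.

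Gabrb2, a beta subunit that joins the most common receptor type of the adult brain, was the only beta gene of the pair with reads. It had 11 TPM in pup 1 (10.3 to 11.7, 1136 reads) and 67.5 TPM in pup 3 (62.5 to 70.1, 2017 reads), with a log2 ratio of -2.51 and a mean of 39.3 ± 40 TPM (SD, n = 2). It was the 1 gene of the set over 2-fold higher in pup 3. The size of that gap depends on length, because the effective length given for the gene was 3890 bases in pup 1 and 1289 bases in pup 3. Reads not divided by length were 27.7 CPM in pup 1 and 67.5 CPM in pup 3, and with TMM scaling the log2 ratio was -1.05. The gene (ENSMUSG00000007653.8) spans chr11:42419757-42629028 on the plus strand, with no overlapping annotated gene.

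Gabrb1, the other beta gene, encodes a subunit known in hippocampus and other forebrain areas. No read was assigned to it in either pup, with upper credibility bounds of 0.0365 and 0.0419 TPM in the same order. A count of 3 reads would have been worth 0.0378 TPM in pup 1 and 0.0433 TPM in pup 3. A share of the beta total of up to 0.343% in pup 1 and 0.0641% in pup 3 remains allowed by that floor. The gene (ENSMUSG00000029212.7) spans chr5:71658113-72149037 on the plus strand. Its deposited transcript model has 3089 bases, against 13737 bases in GENCODE M21, of which 12231 follow the coding region. Reads from that longer 3′ end could not be counted, so 0 reads applies to the shorter model.

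The 3 alpha genes together had 11.1 times the TPM of the beta genes in pup 1 and 0.951 times in pup 3. As reads not divided by length the ratio was 7.59 in pup 1 and 1.97 in pup 3. The order of alpha and beta in pup 3 thus turned with the scale, and the ratio in pup 1 did not.

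Which transcript of a gene received the reads also differed between pups, in the genes with more than 1 annotated transcript. Gabrb2 carried the clearest case. In pup 1 all 1136 reads went to a transcript of 3989 bases that ends with 2140 bases after the coding region. In pup 3 this transcript took 261 reads and 4.29% of the gene's TPM, and a transcript of 1539 bases took 1502 reads and 66.6%. A non-coding transcript of 658 bases took 254 reads and 29.1% in pup 3 and 0 reads in pup 1. As shares of reads in pup 3 the same transcripts held 12.9%, 74.5% and 12.6%.

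The 1539-base transcript contains a coding exon of 114 bases that the 3989-base transcript lacks. Its model holds only 1536 coding bases and the 3 bases of the stop codon. All lengths given after a coding region include the stop codon. The tables cannot separate reads that crossed this exon from reads that missed the long 3′ end. In humans the longer beta2 form carries an insertion in the large cytoplasmic loop of the protein. The exon is shown because it is the coding difference between the leading transcripts of the pups, and lies on the plus strand at chr11:42602115-42602228 (GRCm38).
Gabrb2 extra coding exon: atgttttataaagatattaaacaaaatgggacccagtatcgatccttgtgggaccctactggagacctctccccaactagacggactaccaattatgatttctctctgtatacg

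Gabra3 showed a similar shift. The 3662-base transcript had 34.8 TPM and 3288 reads in pup 1, or 84.1% of the gene's TPM, and 30.1 TPM and 2485 reads in pup 3, or 55.9%. A transcript of 1790 bases had 0 reads in pup 1, and 23.8 TPM and 932 reads in pup 3, or 44.1%. It starts at an exon further upstream and has 77 bases after the coding region, against 1971 in the longer form. As for Gabrb2, the values cannot separate reads from the upstream exon from reads that missed the long 3′ end. A non-coding transcript of 589 bases had 6.59 TPM and 86 reads in pup 1, or 15.9% of TPM, and 0 reads in pup 3. Its share of reads in pup 1 was only 2.54%, since TPM weights short transcripts up. The upstream coding exon of the 1790-base form is printed because it holds a start codon, in capitals, that the longer form does not use. It lies on the minus strand at chrX:72656655-72656734 (GRCm38).
Gabra3 upstream first coding exon: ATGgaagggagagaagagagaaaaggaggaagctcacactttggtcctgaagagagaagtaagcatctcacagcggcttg

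**Figure D3:**
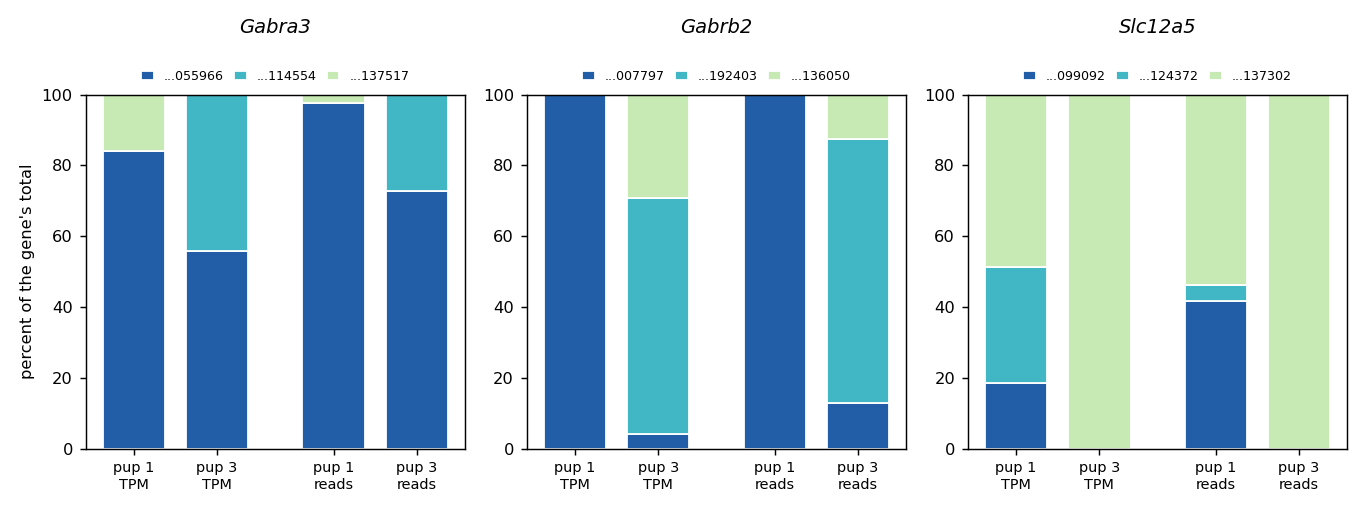
Share of each annotated transcript in the gene's total for Gabra3, Gabrb2 and Slc12a5, as TPM and as reads, with pup 1 left of pup 3 and transcripts marked by the last digits of their Ensembl identifiers. The longest transcript takes 84.1% of Gabra3 TPM in pup 1 and 55.9% in pup 3, and 100% of Gabrb2 TPM in pup 1 and 4.29% in pup 3.

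**Figure D4:**
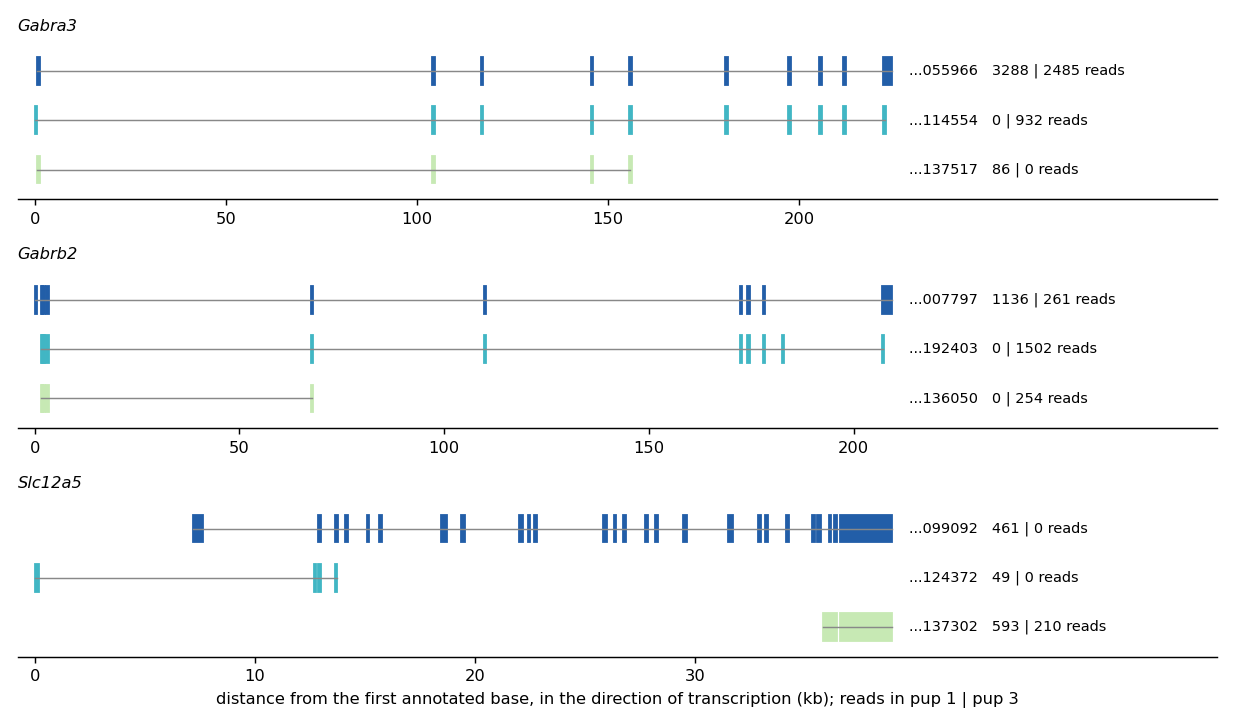
Exons of the transcripts named in the text, drawn by distance in kb from the first annotated base in the direction of transcription, with the last digits of the Ensembl identifier and the reads in pup 1 and then pup 3 beside each. Slc12a5 reads in pup 3 are all assigned to the 2-exon transcript at the 3′ end.

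Slc12a2 and Slc12a5 set the chloride gradient in opposite directions, and only Slc12a5 had reads. No read was assigned to Slc12a2 in either pup, with upper credibility bounds of 0.0173 TPM in pup 1 against 0.0198 TPM in pup 3. The gene (ENSMUSG00000024597.10) is annotated at chr18:57878678-57946821 on the plus strand, with 1 deposited transcript of 6520 bases, the same length as in GENCODE M21, and no overlapping gene. Slc12a5 had 15.8 TPM in pup 1 (13.8 to 17.3, 1102 reads) and 3.12 TPM in pup 3 (2.77 to 3.74, 210 reads), with a log2 ratio of 2.02 and a mean of 9.44 ± 8.93 TPM (SD, n = 2). It lay at the 32.4th percentile of found protein-coding genes in pup 1 and at the 6.62nd in pup 3. The gene (ENSMUSG00000017740.12) spans chr2:164960802-164999731 on the plus strand, with no overlapping gene.

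Set against Slc12a5 in the same library, Slc12a2 was at least 895-fold lower in pup 1 and at least 155-fold lower in pup 3, with 3 reads as its floor. Those bounds are log2 ratios of at most -9.81 in pup 1 and -7.27 in pup 3. As shares of the summed reads, 0 of 1102 allows up to 0.272% in pup 1 and 0 of 210 allows up to 1.43% in pup 3. The exact (Clopper-Pearson) 95% upper limits were 0.334% and 1.74%. Expression of Slc12a2 was not detectable at this depth in either library. Of genes within 2-fold of Slc12a5 in pup 1, 42.9% had 0 reads in pup 3, and of those near its level in pup 3, 14.4% had 0 reads in pup 1. The choroid plexus epithelium is known to carry much Slc12a2, and its marker Ttr, a thyroid hormone carrier, had 1724 TPM in pup 1 and 1898 TPM in pup 3. Enpp2, another marker of that tissue, had 44.5 and 106 TPM in the same order, and these 2 of 5 choroid plexus markers were the ones found in both pups. Of the other 3, Folr1 had 85.3 TPM in pup 1 against 0 TPM in pup 3, Kcnj13 had 0 TPM in pup 1 against 0.04 TPM in pup 3, and Kl had 0 reads in both.

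Most Slc12a5 reads were assigned to a transcript at the 3′ end of the gene. This transcript of 3001 bases in 2 exons took 593 reads and 48.8% of the gene's TPM in pup 1, and all 210 reads in pup 3. It is annotated as a retained intron, with no coding region. In GENCODE M21 its second exon, of 2343 bases, lies wholly within the 2352-base last exon of the full-length coding transcript. Assignment to it therefore does not show that the RNA was non-coding. The full-length transcript of 6024 bases had 461 reads and 2.93 TPM in pup 1, or 18.6% of TPM and 41.8% of reads, and 0 reads in pup 3. A short transcript of 462 bases that begins at the alternative first exon 1a had 49 reads and 32.6% of TPM in pup 1, but 4.48% of reads. The pup 3 reads do not show which first exon was used.

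Slc12a5 has a pair of first exons with their own start codons, 1a and 1b, that give 2 forms of the transporter differing at the N terminus. The coding part of exon 1a and the sequences just before both exons are printed because some pup 1 reads were assigned to transcripts from each start. These were 461 reads for the full-length transcript from exon 1b and 49 for the 462-base transcript from exon 1a. The 593 reads of the 3′ transcript do not show which start was used, since its second exon lies within the last exon of the full-length transcript. The coding part of exon 1a lies on the plus strand at chr2:164960883-164961003, with the start codon in capitals (GRCm38). The sequences before each start, from RefSeq on GRCm38.p6, lie at chr2:164960596-164960801 and chr2:164967738-164967982, with the capitals in the last marking an E-box, CACGTG.
Exon 1a coding part: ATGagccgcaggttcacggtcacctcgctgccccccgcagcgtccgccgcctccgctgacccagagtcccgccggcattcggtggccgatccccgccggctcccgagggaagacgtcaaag
Upstream of exon 1a: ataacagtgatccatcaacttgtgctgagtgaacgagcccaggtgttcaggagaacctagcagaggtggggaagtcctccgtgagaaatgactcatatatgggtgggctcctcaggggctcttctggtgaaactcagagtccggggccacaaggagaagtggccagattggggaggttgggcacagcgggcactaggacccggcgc
Upstream of exon 1b: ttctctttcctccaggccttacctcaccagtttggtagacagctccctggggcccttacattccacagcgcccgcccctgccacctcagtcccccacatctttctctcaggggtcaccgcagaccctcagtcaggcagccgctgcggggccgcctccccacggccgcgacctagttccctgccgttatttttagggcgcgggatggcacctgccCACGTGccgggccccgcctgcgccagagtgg
The E-box letters CACGTG read the same on both strands and were searched in windows of 300 bases around starts in RefSeq. They occurred 1 time in the exon 1b window and 0 times in the exon 1a window, and 7.15% of 32851 windows hold them. The letters GCGNGGGCG, searched on both strands as a form of the Egr motif, occurred 0 times in both Slc12a5 windows, and 5.55% of windows hold them. These matches describe letters only.

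The other genes of the pathway were taken as lists and counted at the same threshold of 1 TPM, with 24.7% of protein-coding genes found in both pups. Fold was counted among genes found in either pup. Of all such protein-coding genes, 49.1% lay over 2-fold higher in pup 1 and 22.9% in pup 3, the shares to set beside each list below. Of the 14 other GABA-A subunit genes, 3 were found in both, 4 were found in pup 1 only and 7 in neither. Gabrg3, a gamma subunit, had 42.0 TPM in pup 1 and 0 TPM in pup 3. Among GABA-B receptor genes, which act through G proteins, 1 of 5 was found in both, and Gabbr1 had 77.3 TPM in pup 1 and 20.3 TPM in pup 3. Glycine receptor genes, the related inhibitory channels, were found in both pups for 1 of 5, Glrb, which anchors the receptor, with 18.0 and 10.7 TPM in pup 1 and pup 3. Over 2-fold higher in pup 1 were 4 of the other GABA-A genes, 3 of the GABA-B genes and 1 glycine receptor gene, and over 2-fold higher in pup 3 were 2, 1 and 0 of them.

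None of the 7 other cation-chloride cotransporter genes was found in both pups. Slc12a4 (KCC1) had 19.5 TPM in pup 1 and 0 TPM in pup 3, and 2 of the 7 were found in pup 1 alone. Of 13 kinases and other regulators of the cotransporters, 5 were found in both pups, and another 4 only in pup 1. Stk39 (SPAK), a kinase that phosphorylates these transporters, had 2.98 TPM in pup 1 and 41.9 TPM in pup 3. Neto2 and Grik2, which bind KCC2, had 33.3 and 40.6 TPM in pup 1, against 10.6 and 55.7 TPM in pup 3. Over the list of regulators, 6 lay over 2-fold higher in pup 1 and 1, Stk39, in pup 3.

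Other chloride and bicarbonate genes were found in both pups for 2 of 8. Car2, a carbonic anhydrase, had 62.7 TPM in pup 1 and 40.6 TPM in pup 3, and Clcn3, a chloride and proton exchanger of vesicles, had 53.4 and 34.8 TPM in the same order. Both lay within 2-fold between the pups, while 3 of the list lay over 2-fold higher in pup 1 and 1 in pup 3. Sodium pump genes, which supply the ion gradients that the cotransporters use, were found in both for 4 of 6. Atp1b2, a beta subunit of the pump, had 112 TPM in pup 1 against 23.7 TPM in pup 3. Atp1b3 was level, with 40.2 TPM in pup 1 and 42.1 TPM in pup 3, and Atp1b1 had 77.6 TPM in pup 1 and 0.14 TPM in pup 3. Of the 6 pump genes, 4 lay over 2-fold higher in pup 1 and 1 in pup 3.

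Scaffold and trafficking genes of the receptor were found in both pups for 7 of 14. Gabarap, which binds the receptor and takes part in its trafficking, had 361 TPM in pup 1 and 550 TPM in pup 3, and Gabarapl2 had 307 and 529 TPM. Gabarapl1 had 145 TPM in pup 1 and 16.5 TPM in pup 3, and Nsf, a membrane fusion ATPase, had 169 TPM in pup 1 and 0 TPM in pup 3. Over the 14 genes, 9 lay over 2-fold higher in pup 1 and 1 in pup 3, while Gabarap and Gabarapl2 were higher in pup 3 by less than 2-fold. Over all protein-coding genes found in either pup, the shares past 2-fold were 49.1% and 22.9% in the same order. Of genes of GABA synthesis, release and uptake, 4 of 8 were found in both. Gad1, which makes GABA, had 263 TPM in pup 1 against 141 TPM in pup 3. Abat, which degrades GABA, had 70.8 TPM in pup 1 and 0.02 TPM in pup 3, and the transporter Slc6a13 had 42.6 TPM in pup 1 and 0.02 TPM in pup 3. Of these 8 genes, 4 lay over 2-fold higher in pup 1 and 2 in pup 3.

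**Figure D5:**
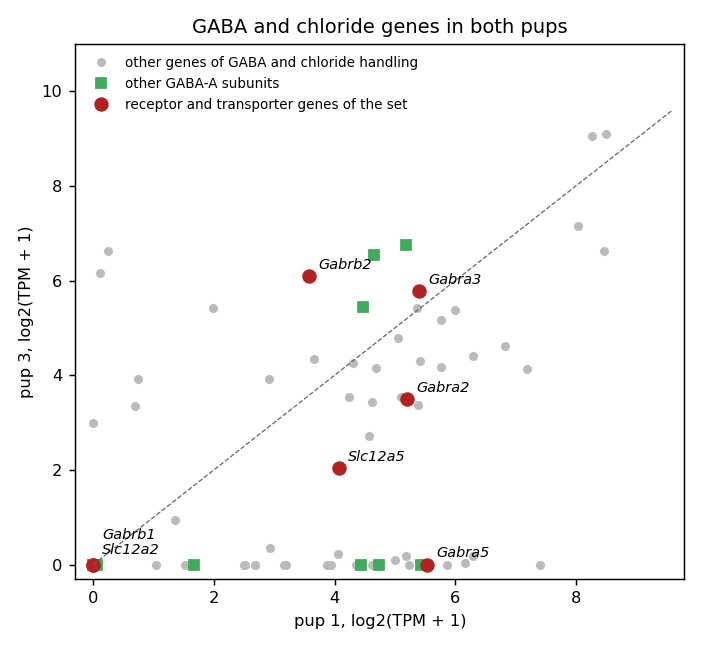
Level of each gene of the set and of the other pathway lists in pup 1 on the x axis and pup 3 on the y axis, both as log2(TPM + 1), with the line of equal level dashed. Gabra3 lies near the line, Gabra5 lies on the x axis and Gabrb2 lies above the line.

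Markers of the other cell types that the tissue holds moved unevenly between the pups. Among all protein-coding genes found in either pup, 49.1% lay over 2-fold higher in pup 1 and 22.9% in pup 3. Astroglial markers were found in both for 6 of 6, where Fabp7 had 1337 TPM in pup 1 against 2290 TPM in pup 3, and Apoe had 1172 and 1183 TPM. Of the 6 astroglial genes, 2 lay over 2-fold higher in pup 1 and 1 in pup 3, and their TPM summed to 3439 in pup 1 and 3928 in pup 3. Oligodendrocyte lineage markers were found in both for 2 of 6, where Olig1 had 40.7 TPM in pup 1 against 0 TPM in pup 3, and Cnp had 34 and 2.59 TPM. Of these 6 genes, 3 lay over 2-fold higher in pup 1 and 2 in pup 3. Endothelial markers were found in both for 3 of 5, and their summed level was 57.05 TPM in pup 1 against 293 TPM in pup 3. Cldn5 had 41.8 and 82.2 TPM in pup 1 and pup 3, and Slc2a1 had 0 TPM in pup 1 and 84.8 TPM in pup 3. Neuronal markers summed to 8906 TPM in pup 1 against 4097 TPM in pup 3, where Tubb3 had 6275 and 1872 TPM and Stmn2 had 1786 and 1738 TPM in the same order. Tubb3 made up most of the neuronal difference, since the other 6 markers summed to 2632 TPM in pup 1 and 2225 TPM in pup 3. Of the 7 neuronal genes, 3 lay over 2-fold higher in pup 1 and 0 in pup 3, and of the 5 endothelial genes, 0 lay over 2-fold higher in pup 1 and 3 in pup 3. The part of these marker levels, of depth and of the spike-in share in the differences between pups for the receptor and transporter genes was not tested.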

How the data were processed

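Forebrain RNA of 2 newborn pups was measured in 1 gene table and 1 transcript table per library. The authors deposited expected counts (reads estimated per feature), TPM, FPKM, posterior mean TPM and credibility bounds, per the file headers. Neither aligner, counter and versions nor strand setting is stated (not given in the sources used here). The deposit names assembly mm10 and annotation M4, and symbols and exons came from GENCODE M21 on the same assembly (42462 of 43346 genes matched). With 1 group of 2 libraries no test was made. Depth was 41082811 reads in pup 1 and 29881397 in pup 3. Found means TPM of 1 or more, ratios use log2(TPM + 1), and 3 reads, converted to TPM, stand for 0. Shares came from TPM. Counts were rounded for intervals. Size factors used the 11993 genes with at least 10 reads over both pups (edgeR 4.0.16, DESeq2 1.42.0, R 4.3.3). Other steps used Biopython 1.88, scipy 1.17.1, pandas 2.3.3 and matplotlib 3.10.9 in Python 3.11.15, and the steps were tested on simulated data. Alternatives changed the measure, length scaling, pseudocount, threshold, normalization and library.

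The members and lists were chosen with earlier results of these data known. The rule named all 7 genes, up to 4 genes of each other list at a mean of 20 TPM or more, otherwise the highest, the 2 highest of each marker list, and transcripts with 10% or more of a gene's TPM in either pup. Folr1, Kcnj13 and Kl were named after their values were seen. A few genes taken by the rule are not reported here.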

Additional observations from a re-analysis of the deposited data

How the results depend on the processing

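Of 50 shares, levels and ratios recomputed with both pups under another setting, 45 moved by less than the SD between pups and 5 by more. All 20 alternative counts of genes stayed within 1.5 times. Of 30 alternative log2 ratios between pups for single genes, 20 stayed within the counting error of their reads and 10 did not, and none changed sign. Leaving out 1 of 2 pups moves a mean by less than the SD whatever the values, so those values are given as ranges only. Adding 1 TPM to each gene gave Gabrb1 4.57% and Gabrb2 95.4% of the beta total and a mean log2 ratio of Slc12a2 to Slc12a5 of -3.05, against at most -8.54 as reported. Posterior mean TPM gave Gabrb1 0.0528% and Gabrb2 99.9%. The pseudocount sets these values, since Slc12a2 and Gabrb1 have no reads. With 1 pup left out the ratio of Slc12a2 to Slc12a5 was -9.81 to -7.27, the log2 ratio of alpha to beta genes was -0.07 to 3.48, which reverses its sign in pup 3 alone against 1.70 as reported, the Gabra3 share of the alpha total was 33.8% to 83.9%, and 4 to 5 genes were found. The Gabrb2 log2 ratio between pups was -2.72 with FPKM, -1.05 with TMM scaling and -1.06 with DESeq2 size factors. The Gabra5 ratio was 8.83 with a pseudocount of 0.1. At a threshold of 5 TPM, 3 of the 7 genes were found in both pups. Of genes near the level of Gabra5 in pup 1, 28.1% had 0 reads in pup 3, and of genes near Gabrb2 in pup 3, 4.55% had 0 reads in pup 1, so 0 reads does not show absence. The cause was not tested. No paired analysis was possible because both libraries belong to 1 group.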
